A study of Mus musculus with 47 samples.

Results

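The library at issue came from thymocytes sorted at the DN2 stage in which LckCre, a Cre recombinase driven by a promoter of the T-lineage kinase gene Lck, had deleted floxed Bcl11b in the animal. Its title gives the stage more narrowly as DN2a. It was set against 1 library of DN3 thymocytes from B6 mice that expressed LckCre and kept Bcl11b. A further 2 libraries of freshly sorted, uncultured thymic DN3 cells served as added intact references: 1 carried the CreERT2 transgene, expressed from the ROSA26 locus, together with floxed Bcl11b that had not been deleted, and 1 carried CreERT2 alone. These 4 of the 47 RNA-seq libraries of mouse T-cell precursors were chosen by their labels and not by any measured value. The labels give no age for these thymic animals, no number of pooled animals and no floxed exons. The other groups drawn on were fetal liver precursors cultured on stromal cells (OP9-DL1 or OP9-DL4) that present a Notch ligand: 14 libraries deleted with a Cre retrovirus and 11 Cre-transduced controls. The cytokine IL-7 in these cultures was not the same throughout: some titles name it as high or low, and reduced IL-7 was fitted as a covariate. The labels' protocols describe a DN2a sort for those knockout cells and a DN2b sort for their controls, but the titles differ: of the 14 knockout titles 8 give DN2a, 5 give DN2 and 1 gives DN2b, and of the 11 control titles 8 give DN2b and 3 give DN2. Last came 4 untreated DN2a and 2 untreated DN2b libraries of normal B6 cells grown from fetal liver of the same embryonic day. The title of 1 of the 2 DN2b libraries (replicate 1) gives DN3.

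DN1 to DN4 are successive stages of thymocytes that carry neither CD4 nor CD8. Cells at DN2a still express the stem cell factor receptor Kit and can give rise to other lineages. Bcl11b, a transcription factor with zinc fingers, comes on across the DN2a to DN2b step and is needed for commitment to the T lineage. In its absence precursors are known to keep progenitor genes and to take on features of natural killer (NK) cells and other innate lymphocytes. Id2, one of the genes of that programme, encodes a protein that binds E proteins and keeps them from DNA, while E proteins, which bind the E-box, drive T-cell receptor genes.

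With 1 knockout library, genotype, sorted stage and title date changed together and cannot be told apart. A code in the column header, whose meaning is not given, also separated the knockout (new) from the LckCre control (D) and the CreERT2 pair (A). The level of each gene is in FPKM, a count of sequenced fragments corrected for transcript length and library total, and 0.1 FPKM is the lowest value listed. The knockout library held 12976 genes at 1 FPKM or more, and the references held between 12574 and 13094. Sequencing depth is unknown from these values. Across genes, Pearson's r of log2(FPKM + 1) was 0.968 between the knockout and the LckCre control, 0.945 with the CreERT2 floxed library and 0.950 with the CreERT2 library. The references correlated with each other at 0.968 to 0.975. Genes are not independent replicates, so these values are descriptions. Above the floor, 638 genes had the same value, within 0.0001 FPKM, in both CreERT2 libraries, so those references were not separate measurements for such genes.

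Promoters of 4 genes to which the results return are shown because Id2 stood high in the knockout library while the pre-T-cell receptor gene Ptcra and the CD3 chain genes Cd3d and Cd3g stood low. Each is the RefSeq sequence of build GRCm38.p6 from 250 bases before to 50 bases after the annotated gene start, read in the direction of the gene. Capitals mark every match to the E-box letters CANNTG, which read the same on both strands. The Id2 window lies at chr12:25096043-25096342 on the minus strand.
Id2: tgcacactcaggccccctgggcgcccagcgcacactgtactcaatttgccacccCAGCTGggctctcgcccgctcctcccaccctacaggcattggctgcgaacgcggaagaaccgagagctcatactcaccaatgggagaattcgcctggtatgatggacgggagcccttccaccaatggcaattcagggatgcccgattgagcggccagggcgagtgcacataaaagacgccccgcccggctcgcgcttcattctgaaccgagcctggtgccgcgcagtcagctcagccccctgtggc
The Ptcra window lies at chr17:46763663-46763962 on the minus strand.
Ptcra: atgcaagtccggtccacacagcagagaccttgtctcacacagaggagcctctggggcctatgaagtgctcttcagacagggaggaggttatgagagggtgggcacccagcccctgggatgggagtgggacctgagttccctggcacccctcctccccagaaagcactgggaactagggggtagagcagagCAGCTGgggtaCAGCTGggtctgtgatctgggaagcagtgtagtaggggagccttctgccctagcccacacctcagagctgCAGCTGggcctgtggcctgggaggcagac
The Cd3d window lies at chr9:44981536-44981835 on the plus strand.
Cd3d: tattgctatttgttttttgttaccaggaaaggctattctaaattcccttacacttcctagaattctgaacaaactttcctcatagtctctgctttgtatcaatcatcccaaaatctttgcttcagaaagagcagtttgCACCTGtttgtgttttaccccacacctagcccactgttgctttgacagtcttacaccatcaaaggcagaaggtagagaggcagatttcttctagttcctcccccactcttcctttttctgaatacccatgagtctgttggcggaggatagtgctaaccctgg
The Cd3g window lies at chr9:44980382-44980681 on the minus strand, beside that of Cd3d and read in the opposite direction.
Cd3g: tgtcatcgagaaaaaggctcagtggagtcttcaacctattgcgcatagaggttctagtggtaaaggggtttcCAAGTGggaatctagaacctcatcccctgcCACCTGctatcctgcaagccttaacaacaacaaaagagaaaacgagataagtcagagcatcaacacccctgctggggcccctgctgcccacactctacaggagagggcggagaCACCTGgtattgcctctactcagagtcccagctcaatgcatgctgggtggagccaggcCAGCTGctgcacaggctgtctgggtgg
Id2 and Cd3d each held 1 match, Ptcra held 3 and Cd3g held 4. Of 32851 promoters of this length, 72.3% held at least 1 match, 17.6% held 3 or more and 6.49% held 4 or more. A match is a run of letters and was not tested as a binding site.

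Bcl11b transcript was reduced but present in the knockout library. It stood at 36.4 FPKM there, against 105 in the LckCre control, 134 in the CreERT2 floxed library and 100.0 in the CreERT2 library. The knockout was below every reference, by 1.51 on the log2(FPKM + 1) scale against the LckCre control. Since the deleted exons are not stated, a value over the whole gene checks the label only in part. Untreated DN2a cells, which carry no deletion, had 0.1 to 15.1 FPKM, so the knockout library exceeded normal DN2a cells in Bcl11b transcript and lay below the 45.6 and 100.4 FPKM of the DN2b libraries.

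**Figure D1:**
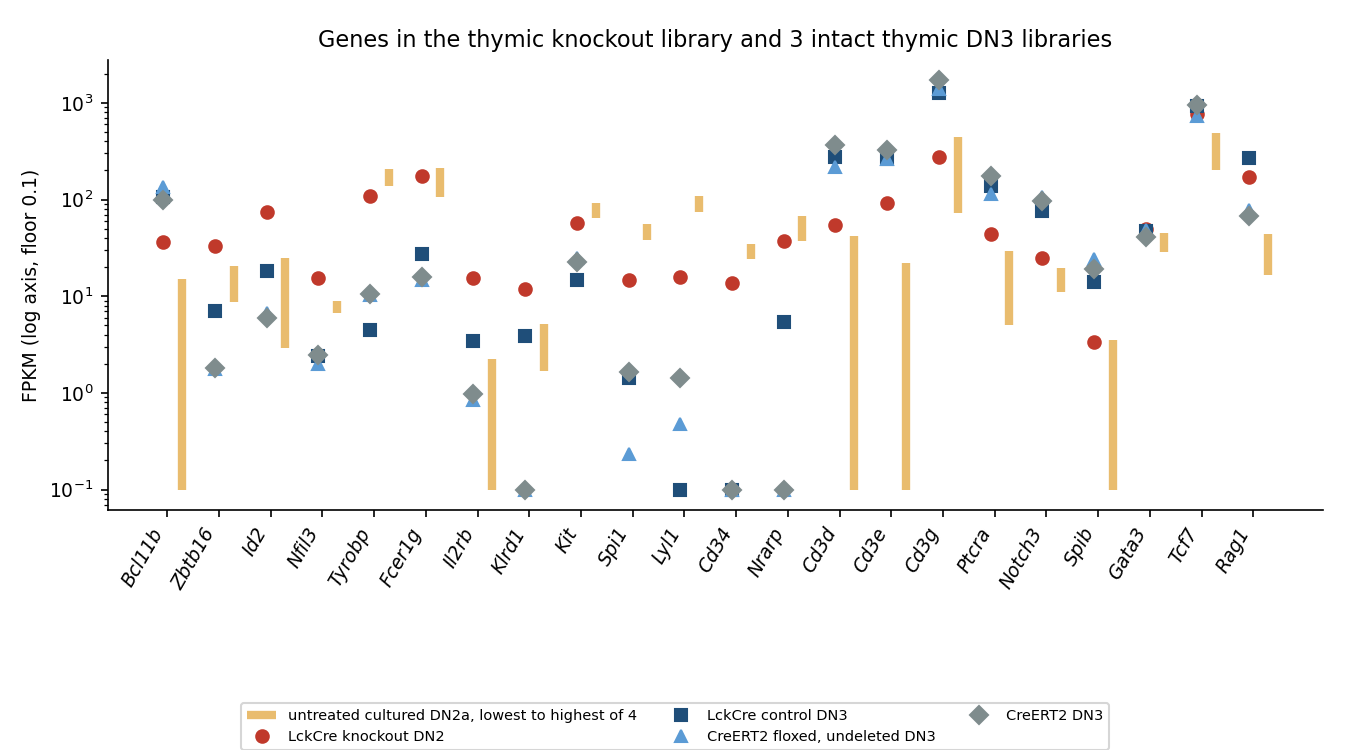
FPKM (log axis, lowest listed value 0.1) of 22 genes in the thymic knockout library and the 3 intact thymic DN3 libraries, with a bar from the lowest to the highest of 4 untreated cultured DN2a libraries. The knockout stands above all 3 references for Zbtb16 (32.7 against 1.76 to 7.04 FPKM) and for Tyrobp (109 against 4.51 to 10.6 FPKM), below them for Cd3d (54.2 against 216 to 366 FPKM), and within less than 2-fold of every reference for Gata3 and Tcf7.

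The 3 markers named for this library were all higher in it. Zbtb16, which encodes PLZF, a factor of innate lymphoid precursors and NKT cells, had 32.7 FPKM in the knockout, 7.04 in the LckCre control, 1.76 in the CreERT2 floxed library and 1.80 in the CreERT2 library. Id2 had 73.5 FPKM against 18.0, 6.65 and 5.91 in the same order. Tyrobp, which encodes the adaptor DAP12 of activating NK and myeloid receptors, had 109 FPKM against 4.51, 10.4 and 10.6. The knockout was above every reference for all 3. In bulk RNA, more cells of a type and more RNA per cell cannot be told apart. Against the LckCre control the differences were 2.07 for Zbtb16, 1.97 for Id2 and 4.32 for Tyrobp (log2). For Zbtb16 and Id2 the knockout also exceeded each of the 6 untreated DN2 libraries, in which Zbtb16 reached 20.5 FPKM and Id2 reached 24.6 FPKM. Tyrobp did not go beyond the normal stage: untreated DN2a cells had 140 to 205 FPKM and DN2b cells 0.1 to 10.1 FPKM, so that the knockout level lay between the stages.

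Across the table, 1123 of 13553 genes (8.29%) differed at least 2-fold between the knockout and the LckCre control, 641 higher (4.73%) and 482 lower (3.56%). The knockout differed in 13.4% of genes from either CreERT2 library. The references differed among themselves at that threshold in 5.39% (LckCre control and CreERT2 floxed), 4% (LckCre control and CreERT2) and 9.47% (the CreERT2 pair) of genes. Requiring the knockout to lie beyond all 3 references by 2-fold left 690 of 14287 genes (4.83%), 403 higher (2.82%) and 287 lower (2.01%). Asked the same of each reference against the other 2, the shares were 1.78% for the LckCre control, 2.66% for the CreERT2 floxed library and 1.11% for the CreERT2 library. With limma, 1 library against 3, 179 genes (1.25%) had an adjusted p under 0.05, of which 107 were higher (0.749%) and 72 lower (0.504%), with 1581 (11.1%) at an unadjusted p under 0.05, and all 179 lay beyond the references by 2-fold. That test assumes that the lone knockout varies as the references do and compares libraries, not genotypes. Without the LckCre control it called 0 genes, with 1237 at an unadjusted p under 0.05, and without the CreERT2 floxed library it called 558 higher and 376 lower. An exact permutation test of a single gene, 1 against 3, cannot go below p = 0.25. In what follows "higher" and "lower" mean beyond all 3 references by 2-fold unless a test is named, and the 2.82% and 2.01% above are the shares of all genes to which a list's count compares. For the thymus a limma adjusted p is printed mostly where it was under 0.05. Zbtb16, Id2, Il2rb, Ptcra, Cd3e, Kit, Cd160, Klrd1 and Runx3 were among the named genes that limma did not call there. A gene that reached 1 FPKM only in the knockout could not be lower: 465 of the tested genes did so, among them 92 of the 403 higher ones, and 1311, among them 78 of the 287 lower ones, reached it only in a reference. Counts and medians of lists are descriptions for that reason too.

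The list of innate lymphoid and NK genes held 17 members at or above the level tested, 10 of them higher and 0 lower. Their median difference from the LckCre control was 1.42 (log2), against 0.00 over all genes tested, and 2 of the 10, Klrk1 and Zfp105, were tested only through the knockout. Among regulators, Nfil3, a factor required for NK and innate lymphoid precursors, had 15.5 FPKM against 2.43, 2.00 and 2.48 in the LckCre control, CreERT2 floxed and CreERT2 libraries. Its limma adjusted p was 0.027, and the knockout level exceeded every untreated DN2 library. Among signalling chains, Fcer1g, the adaptor chain shared by Fc and NK receptors, had 176 FPKM against 27.5, 14.5 and 15.9. Il2rb, the receptor chain shared by IL-2 and IL-15, had 15.3 FPKM against 3.44, 0.849 and 0.964. The references lay below the knockout for each of these 3 genes, and the LckCre control was the highest reference for Fcer1g and Il2rb. Among receptors, Cd160 had 51.4 FPKM against 10.6 in the LckCre control and 0.1, the floor, in both CreERT2 libraries. Klrd1, which encodes CD94, had 11.9 FPKM against 3.86 and 0.1 in both CreERT2 libraries. Cd244, a receptor for CD48, had 12.2 FPKM against 1.16, 4.68 and 3.58. A fold against a floor value is not a bound, and so the LckCre control is the informative reference for Cd160 and Klrd1.

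Defining genes of mature NK cells were low in every library. Ncr1, which encodes NKp46, had 0.538 FPKM in the knockout against 0.151, 0.136 and 0.172. Eomes had 0.491 FPKM against 0.218, 0.217 and 0.177, and Klrb1c had 1.77 against 0.883, 1.06 and 0.342. The knockout was above every reference for all 3 genes. Klrb1c was not beyond all of them by 2-fold on the log2(FPKM + 1) scale. Ncr1 and Eomes, under 1 FPKM, could not reach 2-fold on that scale, so it says nothing of them. The level of the innate list summed over its tested members was 683 FPKM in the knockout and 174 to 182 in the references. Of 8 NK receptor genes tested, 3 were higher and 0 lower, and 3 of the 8 were tested only because the knockout reached 1 FPKM, among them the higher gene Klrk1, at 2.70 FPKM against 0.38 to 0.457. Of 8 members of the cytotoxic list tested, 3 were higher, Xcl1, Gzmc and Serpinb9, and Xcl1 is also a member of the chemokine list. Gzma, which encodes granzyme A, was not beyond the references: it had 1504 FPKM in the knockout, 788.5 in the LckCre control and 0.1 in both CreERT2 libraries.

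**Figure D2:**
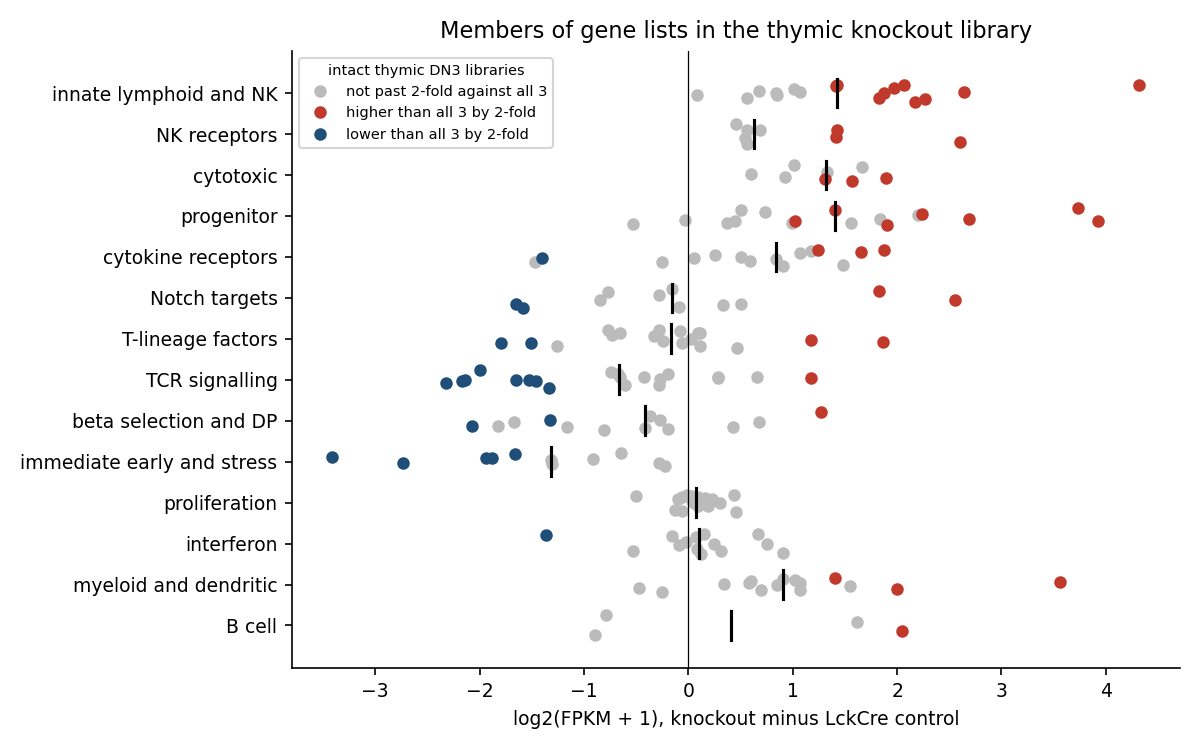
Difference in log2(FPKM + 1) between the thymic knockout and the LckCre control for each tested member of 14 gene lists, 1 point a gene, with a black bar at the list's median. Red and blue points lie beyond all 3 intact libraries by 2-fold. The innate lymphoid and NK list has 10 of 17 red and the TCR signalling list 8 of 20 blue, while all 18 proliferation genes are grey.

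Genes of the T-cell receptor and its signalling stood lower in part. Of 20 tested members 8 were lower and 1 was higher, with a median difference of -0.67 from the LckCre control. Cd3d, a CD3 chain, had 54.2 FPKM against 275, 216 and 366 in the LckCre control, CreERT2 floxed and CreERT2 libraries, with a limma adjusted p of 0.042. Cd3g had 279 FPKM against 1256, 1377 and 1705, and its limma adjusted p was 0.11. Ptcra, which pairs with the rearranged beta chain at DN3, had 43.8 FPKM against 139, 114 and 177. The knockout was far outside the references for all 3, whose promoters are printed above. Cd3e had 91.4 FPKM against 265, 260 and 323. Lat, the membrane scaffold that links the receptor to its kinases, was at 142 FPKM against 391.8, 422 and 621. Dntt, the polymerase that adds bases at V(D)J junctions, was at 271 FPKM against 686, 890 and 884. Cd5 and Cd6, surface regulators of receptor signalling, were lower too, at 1.34 and 2.81 FPKM, and the lowest references had 5.47 and 8.48 FPKM. Other parts of the same apparatus did not move with them. Lck, the kinase whose promoter drove the Cre, had 375 FPKM against 628, 701 and 984, which was below all references but not by 2-fold against the LckCre control. Zap70 and the recombinase gene Rag1 lay inside the references, Rag1 at 169 FPKM against 267, 78.8 and 67.3. The adhesion gene Cd2 was the 1 member that stood higher, at 40.1 FPKM against 17.2, 10.7 and 10.7. The knockout levels of Cd3d, Cd3e and Ptcra were still above all 4 untreated DN2a libraries, in which Cd3d ranged from 0.1 to 42.0 FPKM and Ptcra from 5.05 to 29.5 FPKM, whereas that of Cd3g lay inside their range of 73.1 to 439 FPKM.

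Of 18 T-lineage transcription factors tested, 14 were not beyond the references. Tcf7, which encodes TCF-1, had 764 FPKM against 932, 733 and 950. Gata3 had 49.9 FPKM against 46.9, 48.3 and 40.7. Both early T-lineage regulators thus stood at DN3 levels in the knockout, and above every untreated DN2 library. Spib, an Ets-family factor, was lower at 3.34 FPKM against 14.1, 24.3 and 19.1 (limma adjusted p 0.042). Zbtb7b, which encodes the CD4-lineage factor ThPOK, was higher at 4.60 FPKM against 0.533, 0.461 and 0.582, but was tested only through the knockout. Runx3, a partner factor of CD8 and innate lineages, was higher at 58.7 FPKM against 25.4, 13.55 and 23.3. The second lower member was Bcl11b itself.

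Of 17 progenitor genes tested 7 were higher and 0 lower, with a median difference of 1.41, and 5 of the 17, with Cd34 and Flt3 among the 7, were tested only through the knockout. Kit had 57.8 FPKM in the knockout against 14.7, 24.9 and 22.5 in the LckCre control, CreERT2 floxed and CreERT2 libraries, and the untreated DN2a cells had 64.6 to 92.7 FPKM. Spi1, which encodes the myeloid and progenitor factor PU.1, had 14.6 FPKM against 1.41, 0.233 and 1.65 (limma adjusted p 0.031). Lyl1, a basic helix-loop-helix factor of stem cells, had 15.7 FPKM against 0.1, 0.479 and 1.42 (limma adjusted p 0.018). These 3 progenitor genes thus stood above DN3 and below normal DN2a cells, where Spi1 had 38.2 to 55.5 FPKM and Lyl1 74.9 to 108 FPKM. Cd34, a surface sialomucin of progenitors, had 13.7 FPKM against the 0.1 floor in all 3 references, and fell short of the 24.5 to 34.4 FPKM of DN2a cells. Bcl11a, the paralogue of Bcl11b, was not beyond the references at 8.12 FPKM against 4.48, 8.10 and 4.94, and DN2a cells had 18.9 to 27.5 FPKM. Of the sorting markers, Cd44 was higher, at 9.32 FPKM against 2.79, 2.07 and 2.58. Il2ra, which encodes CD25, was not, at 355 FPKM against 249, 422 and 209.

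Notch targets were divided, with 2 higher and 2 lower of 11 tested and a median difference of -0.15. Nrarp, a feedback inhibitor of Notch, had 36.9 FPKM against 5.44 in the LckCre control and 0.1 in both CreERT2 libraries. Heyl, a repressor of the Hes family, had 12.1 FPKM against 2.70, 2.59 and 3.04, and exceeded every untreated DN2 library. Notch3 was lower, at 24.8 FPKM against 76.0, 106 and 95.6 (limma adjusted p 0.047), and Ptcra, which is also a Notch target, was the other lower member. Dtx1, Hes1 and Notch1 were not beyond the references. Dtx1 had 44.9 FPKM against 47.7, 62.4 and 72.7.

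Of 15 cytokine receptor genes 3 were higher and 1 lower. Il9r had 30.8 FPKM in the knockout against 9.09, 3.43 and 4.39 in the LckCre control, CreERT2 floxed and CreERT2 libraries. Il12rb2, a chain of the IL-12 receptor, had 42.7 FPKM against 17.5, 15.1 and 7.16. Ifngr1, a chain of the interferon-gamma receptor, was the lower one at 54.5 FPKM against 145, 213 and 150. Of 11 chemokine and chemokine receptor genes 5 were higher, among them Cxcr5, the receptor of CXCL13, at 19.4 FPKM against 2.78, 5.10 and 5.04. Ccr8, another of the 5, was tested only through the knockout.

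Immediate early genes, which cells switch on within minutes of stimulation or handling, were lower in 5 of 11 tested members. Jun had 8.08 FPKM against 59.5, 62.5 and 52.9, with a limma adjusted p of 0.013. Fos had 7.89 FPKM against 33.0, 37.7 and 40.4. Fosb had 0.882 FPKM against 19.0, 12.8 and 10.9, and reached 1 FPKM only in the references. The knockout was below every reference for all 3 genes. Junb and the phosphatase gene Dusp1 were the other 2 lower members. Summed over the tested members, the list had 128 FPKM in the knockout and 261 to 350 FPKM in the references. In untreated DN2a cells Jun had 0.1 to 20.6 FPKM, Fos 5.94 to 24.5 and Fosb 0.1 to 6.75, and the knockout lay inside these ranges. Sorted stage and the dates in the titles differ in the same way. A part of stage, sorting or handling in these values was not tested. Proliferation genes showed no such shift: 0 of 18 lay beyond the references in either direction, and their median difference was 0.07. Of 14 interferon-induced genes 1, Gbp6, was lower, and of 13 survival and SOCS genes 0 were beyond the references.

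Markers of other cells were checked as whole lists. Of 4 B-cell genes tested 1 was higher, the coactivator gene Pou2af1, while Cd79a had 0.876 FPKM and Ebf1 0.340. The list summed to 40.6 FPKM in the knockout and 27.9 to 47.0 in the references. Of 15 myeloid and dendritic genes 3 were higher, and the list summed to 90.7 FPKM against 34.8 to 47.4. The 3 were Fcgr3, which encodes the Fc receptor CD16 of NK and myeloid cells, Mpo and Flt3, the last tested only through the knockout. Fcgr3 had 26.2 FPKM against 1.31, 0.614 and 0.667 (limma adjusted p 0.006), whereas the defining gene Lyz2 was below every reference, at 5.91 FPKM against 8.58, 13.0 and 15.2. Csf1r had 1.96 FPKM against 0.584 in the LckCre control and 0.1 in both CreERT2 libraries. C1qa had 1.28 against 0.404 to 1.07, and Itgax had 1.26 against 0.114 to 0.405. Each was above the references, but not by 2-fold against all of them on the log2(FPKM + 1) scale. That scale understates differences of genes this low. Of 13 genes of beta selection and the CD4+CD8+ stage 1 was higher and 2 were lower, and the list summed to 398 FPKM against 419 to 575. Cd8a had 50.5 FPKM in the knockout, 20.3 in the LckCre control and 0.1 in both CreERT2 libraries. Cd8b1 had 53.6 and 33.2 FPKM in the LckCre pair, Cd4 had 14.8 and 18.0 FPKM, and both genes were at the floor in both CreERT2 libraries. Of 9 mature T and NKT genes 3 were higher, Ccr7, S1pr1 and Il4, and the list summed to 319 FPKM against 246 to 335. Il4 was tested only through the knockout. Of 7 gamma-delta and type 17 genes 1 was higher, Cd163l1, with 402 FPKM for the list against 138 to 199, and Cd163l1 alone made 290.0 FPKM of it. Transcripts of Cd4, Cd8a and Cd8b1 were thus present in both LckCre libraries. In all, 64 genes had 1 FPKM or more in both LckCre libraries and the floor in the CreERT2 pair, among them Cd160, Klrd1 and Nrarp. Cd8a also had up to 21.9 FPKM in untreated DN2a cells and a median of 32.2 FPKM in the fetal liver controls. Of 9 stromal and thymic epithelial genes 1 was higher, Vim, and 1 lower, Epcam, with 402 FPKM against 182 to 188 for the list, of which Vim alone made 319 FPKM in the knockout. Psmb11, a gene of the thymic cortical epithelium, was at 0.437 FPKM. Of 7 erythroid and megakaryocyte genes 2 were higher, Itga2b and Hbb-b2, and the list summed to 149 FPKM against 10.4 to 70.9. Itga2b was tested only through the knockout. Hbb-b2 had 96.8 FPKM against 0.1, 7.15 and 7.37, but Hba-a1 had 4.15 FPKM against 15.5 in the LckCre control. Reads may be split between near-identical globin genes, so the globin values are uncertain. The part of other cells in the results was not tested.

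The most positive differences from the LckCre control, after Hbb-b2, belonged to genes of varied function. Fgf3, a growth factor, had 43.3 FPKM against 0.1, 1.62 and 1.58. Nrgn, which encodes the calmodulin-binding protein neurogranin, had 119.5 FPKM against 2.13, 1.80 and 5.24, with a limma adjusted p of 0.007. Lst1, a leukocyte gene, had 28.5 FPKM against 0.1, 0.1 and 1.44. Each of the 3 was under 6 FPKM in every reference. Tyrobp, Lyl1, Cd34 and Sult5a1 followed. Itga2b, which encodes the platelet and progenitor integrin CD41, had 19.5 FPKM against 0.669, 0.166 and 0.158, and was tested only through the knockout. S100a4, a calcium-binding protein gene, had 75.9 FPKM against 5.41 in the LckCre control and 0.1 in both CreERT2 libraries.

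At the other end, Myl10, a myosin light chain gene, was listed at the 0.1 floor in the knockout against 217, 471 and 570 FPKM (limma adjusted p 5.8e-04). Dgkeos, an RNA antisense to Dgke, was also at 0.1 against 93.7, 75.7 and 172, and reads from the opposite strand cannot be told apart from it because no step of the protocol marks strand. Crip1, a LIM-domain protein gene, had 45.4 FPKM against 1019, 461 and 2656. These genes were abundant in every reference. Pld4, a phospholipase D family gene, had 4.16 FPKM against 69.3, 139 and 102 (limma adjusted p 0.006). Scin, which encodes the actin-severing protein scinderin, had 1.17 FPKM against 20.6, 55.1 and 54.7. Ndrg1, a stress-responsive gene, had 4.41 FPKM against 52.8, 69.9 and 53.0. Tubb2b, Klc3, Fosb and Smim5 completed the 10 most negative. Among the 10, Crip1 and Smim5 were below every untreated DN2 library, and the others lay inside the range of those libraries. In untreated DN2a cells Dgkeos was at 0.1 FPKM throughout, Myl10 ranged from 0.1 to 34.9 FPKM and Pld4 from 0.1 to 21.0 FPKM. Scin ranged there from 18.2 to 55.8 FPKM.

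The sorted stage differed between the knockout and its references, so the genes beyond the references were next set against the 6 untreated DN2 libraries. Of the 403 higher genes, 205 (50.9%) were above every untreated DN2a and DN2b library, 188 (46.7%) lay inside their range and 10 (2.48%) below all of them. Over all genes tested, 20.7% were above, 69.5% inside and 9.78% below. Of the 287 lower genes, 75 (26.1%) were below every untreated DN2 library, 210 (73.2%) were inside and 2 above. The untreated cells were cultured and the thymic cells were not, which this count does not remove. The genes were also chosen by the same knockout value that is compared here. Larger shares beyond the DN2 libraries than over all genes were therefore to be expected, and the shares are descriptions. Without DN2b replicate 1, whose title gives DN3, 215 of the higher genes (53.3%) were above the other untreated libraries, against 28.4% of all genes tested, and 53 were below them. Of the lower genes, 76 were then below. Zbtb16, Id2, Nfil3, Il2rb, Klrd1 and Zbtb7b were in the first class, whereas Tyrobp, Fcer1g, Fcgr3, Fgf3, Nrgn, Lst1, Itga2b, Kit and Spi1 were inside the normal DN2 range. Cd163l1, a scavenger receptor of gamma-delta T cells, was the most abundant of the named genes that were both higher and above all DN2 libraries: it had 290.0 FPKM in the knockout, 43.5, 24.4 and 17.6 in the references, up to 14.9 in DN2a and up to 149 in DN2b. Other abundant genes of this class, chosen after their values were seen, were Timp2, an inhibitor of matrix metalloproteinases, at 151 FPKM against 23.8 to 27.7, and the transferrin gene Trf, at 103 FPKM against 16.8 to 18.7. Trpm1, a cation channel gene, had 27.6 FPKM against 0.546 to 1.82, and Dapl1 had 42.5 FPKM against 4.72 to 5.07. Among the lower genes that lay below every DN2 library, again chosen afterwards, were Plcg1, the phospholipase downstream of Lat, at 22.8 FPKM against 69.6 to 120.5, and Bst1, which encodes CD157, at 11.6 FPKM against 47.1 to 53.8.

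The normal step gave a reference of its own. Between untreated DN2a and DN2b cells, limma called 565 of 13364 genes higher in DN2a (4.23%) and 1234 lower (9.23%). Of the 371 higher thymic genes tested there, 97 (26.1%) were called higher in DN2a and 11 lower, and the 97 were 18.9% of the 514 DN2a-higher genes also tested in the thymus. Of 273 lower thymic genes tested, 68 (24.9%) were called lower in DN2a and 3 higher, and the 68 were 5.59% of 1217. The step's calls rest on few libraries: leaving out 1 library at a time gave 31 to 465 higher and 29 to 941 lower calls, and the fewest of both came without DN2b replicate 1.

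**Figure D3:**
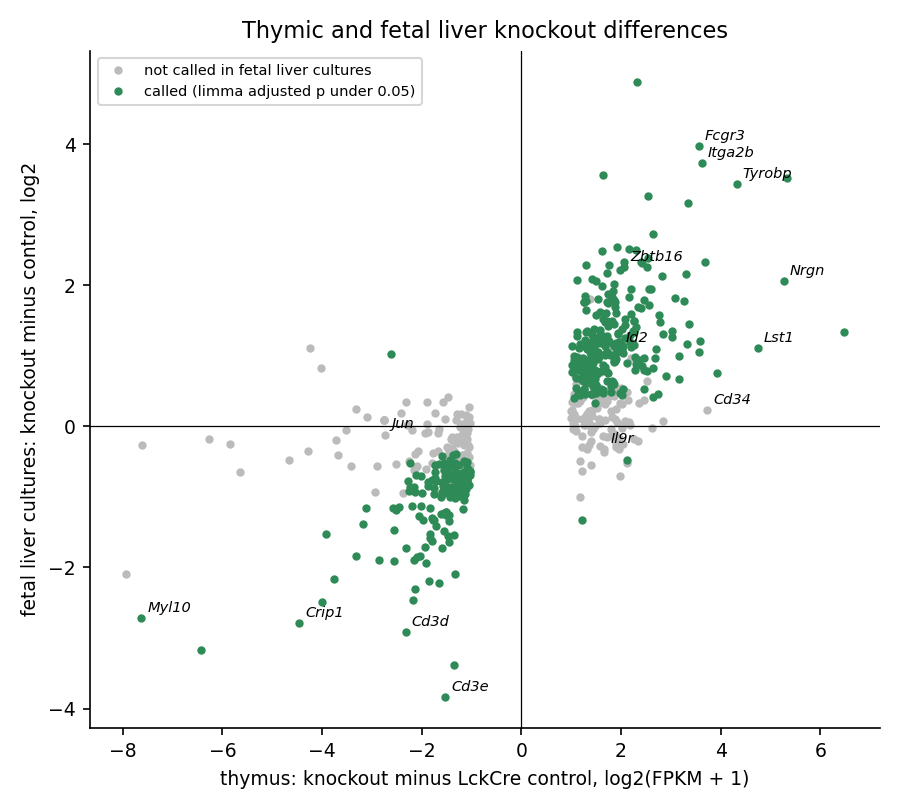
For each gene beyond all 3 intact thymic libraries by 2-fold and tested in fetal liver cultures (376 higher, 252 lower), the difference between thymic knockout and LckCre control (x, log2(FPKM + 1)) against the limma estimate for 14 fetal liver knockout and 11 control libraries (y, log2). Green points were called in the cultures. Most lie in the upper right and lower left, and Cd34, Jun and Il9r lie near 0 on the y axis.

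The fetal liver cultures share no library with the thymic comparison and measure the same genes with replicates. There limma called 2142 of 12678 genes (16.9%), 1242 higher in the knockout (9.8%) and 900 lower (7.1%). In the 18 libraries that share a date across genotypes, fitted with the date as a block, the counts were 659 and 623. In the fit of all 25 culture libraries without that block, 376 higher thymic genes were tested. Of these, 256 (68.1%) were called higher and 2 lower. The 256 were 21.2% of the 1206 culture-higher genes also tested in the thymus. Of 252 lower thymic genes tested, 141 (56%) were called lower and 1 higher, and these 141 were 15.9% of 888. The median culture difference was 0.82 for the higher and -0.67 for the lower thymic genes, against 0.04 over all genes tested in both. By title, 8 of the 11 culture controls were DN2b and 8 of the 14 culture knockouts DN2a, so a difference in sorted stage is shared with the thymic comparison in part of the libraries. Of the 179 genes that limma called in the thymus, 167 were tested in the cultures, and 111 were called the same way and 1 the opposite way.

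The innate markers rose in the cultures as well. Tyrobp had a median of 256 FPKM (range 162 to 511) in the 14 culture knockouts and 32.8 (0.1 to 87.7) in the 11 controls, without overlap, and its difference was 3.43 ± 0.43 (log2, SE, limma adjusted p 1.4e-06). Zbtb16 had a median of 41.5 FPKM (8.53 to 83.1) against 10.8 (0.1 to 21.1), with overlap, and rose by 2.26 ± 0.43 (limma adjusted p 3.5e-04). Id2 had a median of 71.9 FPKM (31.6 to 120.4) against 32.3 (15.6 to 53.6), with overlap, and rose by 1.10 ± 0.21 (limma adjusted p 3.9e-04). Of the innate list 11 of 15 members tested rose and 0 fell, and of the TCR signalling list 10 of 19 fell and 0 rose. Of 14 progenitor genes 10 rose and 0 fell. Cd3e had a difference of -3.84 in the cultures and of -1.61 in the thymus against the mean of the 3 references. The test of the difference between these did not call it. Zbtb7b, Fcgr3 and Itga2b rose by 1.79, 3.97 and 3.72 in the cultures, and their differences from the LckCre control in the thymus were 1.87, 3.56 and 3.62.

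The difference between the thymic and the culture differences was then tested directly in 29 libraries. limma called 60 of 15812 genes (0.379%), 34 with a more positive difference in the thymus (0.215%) and 26 with a more negative one (0.164%). Of the 60, 38 also lay beyond all 3 thymic references, 23 higher and 15 lower, and 33 were too low in the cultures to be tested there. Cd34 differed by 3.50 on the log2 scale (limma adjusted p 0.041), with culture knockout and control medians of 19.2 and 17.1 FPKM and with the thymic references at the floor. Lst1 differed by 3.25 (adjusted p 0.007), with culture medians of 55.8 FPKM in knockout and 32.6 in control. Il9r differed by 2.67 (adjusted p 0.023), with 14.4 and 17.9 FPKM in the cultures. For all 3 the culture control was above every thymic reference. Cd160 differed by 3.25 (adjusted p 0.044), although it also rose in the cultures, by 1.19. Klc3, a kinesin light chain gene, had the opposite sign at -2.63 (adjusted p 0.035): it was at the floor in the thymic knockout and at 2.57 FPKM in the culture knockouts, against 8.73 FPKM in their controls. Leaving out a CreERT2 library ended the calls of Cd34, Cd160 and Il9r, whose adjusted p was then 0.062 to 0.17, and leaving out the CreERT2 library without floxed Bcl11b ended that of Klc3 (0.11), whereas Lst1 was called in each case. The immediate early genes did not pass this test. Jun differed by -2.70 from the mean of the 3 references and by -0.12 in the cultures, and the difference between these was -2.59.

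**Figure D4:**
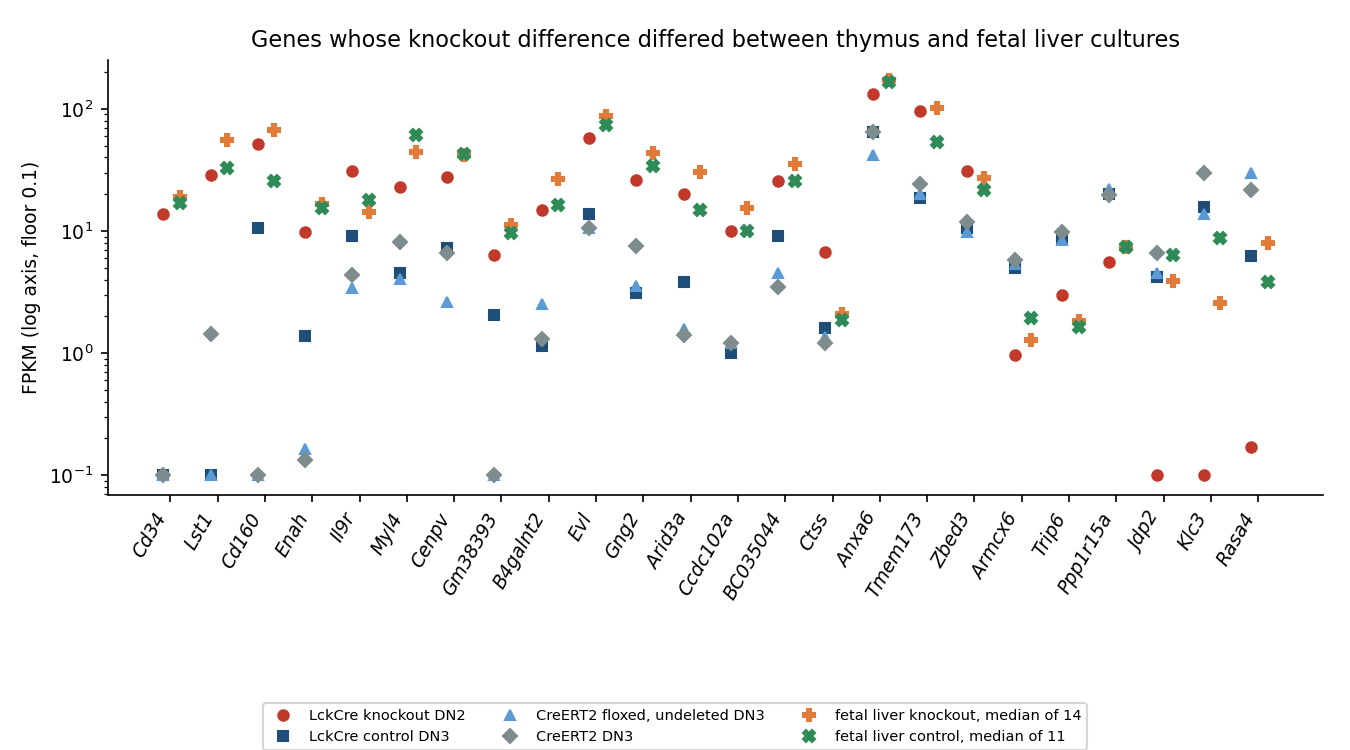
FPKM (log axis, lowest listed value 0.1) of the 24 protein-coding genes whose knockout difference differed between thymus and fetal liver cultures by limma and which lay beyond all 3 intact thymic libraries and were tested in the cultures. Points show the 4 thymic libraries and the medians of 14 culture knockouts and 11 culture controls. In all 18 genes with a more positive thymic difference the culture control median is above the 3 intact thymic libraries, and in 5 of the 6 with a more negative one, Jdp2 being the exception, it is below them.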

How the data were processed

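RNA-seq values of 47 mouse T-cell precursor libraries were taken from 1 table of FPKM that the authors deposited, described by its name as merged and ComBat-adjusted. Per the submitters' processing notes the reads were placed on build mm9. Which aligner and quantifier were used, and which batches and covariates ComBat received, is not stated in the labels or headers, and the adjustment could have moved differences either way. Per the labels' protocols, RNA was selected on oligo-dT beads and primed at random, with no strand-marking step. Library columns were matched by the number in each description, and 16 columns of other samples were not used. Of 17754 genes, 16481 had an entry in GENCODE M21, which gave symbols and gene classes. Promoter sequences came from RefSeq (GRCm38.p6), and Zbtb16 and Tyrobp are named only.

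Values were analysed as log2(FPKM + 1), which understates differences of low genes. A gene was tested if it reached 1 FPKM in as many libraries as the smaller group held. The 2-fold threshold is a difference of 1 on that scale. Models were fitted with limma 3.58.1 (R 4.3.3), with a trend in the variance prior and Benjamini-Hochberg adjustment over all genes tested, and were first tested on simulated data. The fetal liver model had stroma and IL-7 as covariates. Labels do not say whether libraries came from separate animals or cultures, so p-values measure the spread between libraries. Genes were named by a rule: a fixed set of genes, the 10 most positive and 10 most negative beyond all references with at least 5 FPKM in the knockout or in every reference, and up to 4 such members of each of 20 lists, or the 2 most abundant where there was none. The middle step took no pseudogene, predicted gene, small RNA or receptor segment. Other list members and genes were named after their values were seen. The members, lists and tests were chosen with earlier results of these data known. Alternatives covered the pseudocount, the filter, quantile normalization, each library left out, the source of the spread, the reference and the blocking of dates.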

Additional observations from a re-analysis of the deposited data

Results flagged for a closer look

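In untreated DN2a cells Cd3e was 21.9 FPKM in 1 of 4 libraries and 0.1 to 0.997 FPKM in the others, a gap beyond Dixon's 95% limit. Of 26 gene and group combinations checked this was the one found, and chance gives about 1 in 20.

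The test of the difference between thymic and fetal liver knockout effects set 5 named genes apart (limma, 29 libraries): Cd34 at 3.50 (adjusted p 0.041), Lst1 at 3.25 (adjusted p 0.007), Cd160 at 3.25 (adjusted p 0.044), Il9r at 2.67 (adjusted p 0.023) and Klc3 at -2.63 (adjusted p 0.035), all on the log2 scale. Each rests on 1 thymic knockout library.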

How the results depend on the processing

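Of the 71 named genes beyond all 3 references, 0 took the other sign against the LckCre control under any alternative run. Rag1 and Pcna, which were not beyond the references, did so against the mean of the 2 CreERT2 libraries, from -0.65 to 1.20 and from -0.10 to 0.25 (log2). With a pseudocount of 0.1 FPKM in place of 1, the genes past 2-fold against the LckCre control rose to 1089 higher and 790 lower, those beyond all 3 references to 654 and 510, and those also beyond every untreated DN2 library to 341 and 144. The limma count of higher genes, 1 library against 3, then was 46, that of more negative thymic than culture differences 7, and that of genes lower in DN2a 637. Leaving out 1 reference gave 459 to 621 genes higher and 333 to 448 lower beyond the rest, and the most came without the LckCre control. The 1-against-3 limma count was 25 higher and 11 lower with no filter, 259 and 165 with the spread taken from all 47 libraries, 290 and 191 with robust variances, and 0 to 558 and 0 to 376 with 1 reference left out. Thymic against culture calls ran from 19 to 62 and from 21 to 46 with 1 reference left out, with 62 and 46 without the LckCre control and 19 more positive without the CreERT2 floxed library. Untreated DN2a against DN2b gave 567 lower with quantile normalization, and 31 to 465 higher and 29 to 941 lower with 1 library left out. In the fetal liver cultures, the 9 date pairs with pair as a replicate block (18 libraries) gave 659 higher and 623 lower, and ended the calls of Crip1, Flt3, Heyl, Il12rb2 and Kit (limma adjusted p 0.055 to 0.20). Deviations of paired libraries correlated at -0.321 to 0.531, so the shared dates were not taken as pairing. Restricting to protein-coding genes, chosen after seeing the data, left 336 higher and 217 lower, and dropping genes equal in both CreERT2 libraries left 369 and 271. Of the 5 genes with a tested thymic against culture difference, a pseudocount of 0.1 ended the call of Cd160 (limma adjusted p 0.070) and quantile normalization those of Cd34 (0.067) and Klc3 (0.12). The causes of these shifts were not tested. The single knockout library, its earlier sorted stage and the unknown depth limit every thymic difference.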
